A study of Arabidopsis thaliana with 12 samples.

Results

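The 6 wild-type libraries of a 12-library RNA sequencing series on Arabidopsis thaliana were compared. Of these, 3 came from seedlings kept for 6 d on medium with the additive named Est in the labels, and 3 from seedlings kept on it for 1 d. They were picked by their titles, which assign 3 wild-type libraries to the SnRK experiment and 3 to the S1 experiment. The series studied how seedlings of ecotype Col-0 respond to a short extension of the night when SnRK1, an energy-sensing protein kinase, or the S1 group of bZIP transcription factors is depleted. The wild type with 6 d of Est is the control of a line whose label gives the first catalytic subunit of SnRK1 as knocked out, and which also carries an inducible knockdown of the second. The wild type with 1 d of Est is the control of a line labelled as a knockout of bZIP1 and bZIP53, in which silencing of bZIP2, bZIP11 and bZIP44 can be induced. Seedlings for the first experiment went onto Est at an age of 14 d and stayed for 6 d, while those for the second spent 5 more days on MS medium and then 1 d on Est. All groups then had 6 h of extended night and were harvested at the same time, and all are labelled as 3 weeks old. Plants had grown in 12 h light at 120 µmol and 22 °C and 12 h dark at 20 °C. The seedlings compared are termed 6 d seedlings and 1 d seedlings here, and both are wild type. Because each duration occurs in only 1 experiment, the days on Est and anything else that differed between the experiments cannot be told apart.

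Darkness beyond the usual night exhausts leaf starch, and Arabidopsis then turns to other respiratory fuels, amino acids among them, a switch in which SnRK1 takes part. Cold, drought and the hormone abscisic acid induce a shared set of protective genes. CBF proteins act on them at the C-repeat in their promoters, and some bZIP proteins act at the abscisic acid response element. Nitrate is reduced by nitrate reductase and nitrite reductase and then built into glutamine and glutamate. The circadian clock times many such genes through repressors, of which CCA1 binds the evening element.

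Promoter sequences are given for 4 genes that differed between 6 d and 1 d seedlings, 2 cold-regulated and 2 of the clock. RD29A, COR15A and PRR5 were lower in 6 d seedlings, and GRP8 was higher. Each is the 300 bases before the transcript start in the TAIR10.1 annotation from RefSeq, 5′ to 3′ on the gene's own strand. Those of RD29A (chr5:21240417-21240716, plus strand) and COR15A (chr2:17712331-17712630, minus strand) carry the C-repeat core CCGAC, in capitals on either strand, so that its reverse complement reads GTCGG. The windows of PRR5 (chr5:8358547-8358846, minus strand) and GRP8 (chr4:18275217-18275516, minus strand) carry the evening element core AATATCT, in capitals on either strand, with AGATATT as its reverse complement.
RD29A: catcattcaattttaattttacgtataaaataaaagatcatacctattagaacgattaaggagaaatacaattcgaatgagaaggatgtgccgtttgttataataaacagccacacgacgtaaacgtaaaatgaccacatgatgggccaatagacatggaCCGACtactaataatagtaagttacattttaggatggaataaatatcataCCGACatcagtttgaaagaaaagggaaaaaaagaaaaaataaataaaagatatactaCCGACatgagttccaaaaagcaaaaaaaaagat
COR15A: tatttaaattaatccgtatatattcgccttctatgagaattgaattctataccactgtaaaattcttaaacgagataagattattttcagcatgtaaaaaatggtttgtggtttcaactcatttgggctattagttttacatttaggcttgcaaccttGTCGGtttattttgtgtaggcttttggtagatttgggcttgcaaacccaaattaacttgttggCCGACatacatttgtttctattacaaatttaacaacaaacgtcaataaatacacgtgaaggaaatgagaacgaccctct
PRR5: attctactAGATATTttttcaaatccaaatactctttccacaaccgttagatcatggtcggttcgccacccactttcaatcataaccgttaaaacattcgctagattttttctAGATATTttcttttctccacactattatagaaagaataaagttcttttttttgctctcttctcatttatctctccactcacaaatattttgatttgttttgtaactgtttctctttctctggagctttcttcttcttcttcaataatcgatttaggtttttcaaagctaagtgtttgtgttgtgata
GRP8: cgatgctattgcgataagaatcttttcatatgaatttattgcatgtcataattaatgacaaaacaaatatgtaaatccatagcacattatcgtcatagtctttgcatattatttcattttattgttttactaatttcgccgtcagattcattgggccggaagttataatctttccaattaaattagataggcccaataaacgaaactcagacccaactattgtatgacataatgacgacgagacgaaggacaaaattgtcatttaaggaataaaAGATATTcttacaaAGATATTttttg

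RD29A held 3 copies of the C-repeat core, 33 to 140 bases before its start, and COR15A held 2, at 79 and 142 bases. Of the 10 cold and abscisic acid genes that were lower in 6 d seedlings, 4 held the core in this window, the others being COR15B and COR413-PM1 with 1 copy each. The core stood in 15.2% of the 18226 windows of all tested genes with a promoter in the annotation. The abscisic acid response element core ACGTGG stood in 3 of the 10 windows, against 10% of all windows. Among the 11 clock genes that differed, 6 windows held the evening element core, with 3 copies in FKF1, 2 each in PRR5 and GRP8, and 1 each in CCA1, RVE2 and PRR7. That core stood in 11.8% of all windows. The G-box CACGTG, which bZIP and bHLH proteins bind, stood in 5 of the 11 clock windows and in 8.02% of all windows. Shares among the clock and cold genes that were not called were not counted, so these matches cannot be taken as particular to the called ones. These matches describe letters and were not tested as binding sites.

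The 6 d libraries held 9403687, 7204258 and 3760168 counts and the 1 d libraries 7762138, 4721350 and 5563168. In the 6 wild types, the first principal component of log2 CPM (counts scaled by the effective size of each library) held 46.5% of the variance and put the 3 libraries of each duration on opposite sides. The 6 d library 3, which had the fewest counts, lay farthest out, at -46.9, with the other 6 d libraries at -21.9 and -26.9 and the 1 d libraries at 23.6, 32.9 and 39.3. Across genes, libraries of one duration correlated at r = 0.977 to 0.986 and libraries of different durations at r = 0.954 to 0.978.

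Between 6 d and 1 d on Est, similar numbers of genes were higher and lower in the wild type. The lower ones included some cold-regulated, nitrate-assimilating, expansin and glycosyltransferase genes, and the higher ones some amino acid-degrading enzymes. RD29A and KIN2 of the cold response, the nitrate reductase NIA2, the clock repressor PRR5 and the flavonol glucosyltransferase UGT73B2 were lower in every 6 d library than in any 1 d library. The sugar exporter SWEET11, the wall enzyme XTH24, the xylem nitrate transporter NRT1.5 and AT5G18840 of the major facilitator family were higher in every 6 d library. Of 18388 genes tested with edgeR's quasi-likelihood test, 1135 were higher in 6 d seedlings (6.17%) and 1092 lower (5.94%). The threshold was a Benjamini-Hochberg adjusted p under 0.05, and genes past it are called higher or lower throughout. Most changes were small, with a median size of 0.70 on the log2 scale among these genes, and 241 higher and 343 lower genes passed 2-fold. For 2209 of the 2227 genes the 3 libraries of one duration lay beyond all 3 of the other. Of all tested genes, 17% showed that pattern in the higher direction and 17% in the lower.

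Nothing in the labels says that replicates were grown as separate cultures, so every p-value rests on the spread between libraries of a group alone. That spread was estimated over all 12 libraries of the series, those of the SnRK and S1 lines included. With 1 library left out at a time, 622 to 854 genes were higher and 589 to 899 lower, and 825 of the 2227 genes passed in every such fit. Scaling by library totals alone made 724 genes higher and 1438 lower, so that higher genes made up 33.5% of the calls in place of 51.0%. That scaling moved the median log2 fold change of all tested genes to -0.08, against -0.0059 with the scaling used here. Genes named below as higher or lower kept that call without any 1 library, unless libraries are listed beside them with the adjusted p in their absence. Values are CPM in library 1, 2 and 3 of each duration and are not scaled by gene length. Fold changes are 6 d over 1 d on the log2 scale, with their standard error.

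**Figure D1:**
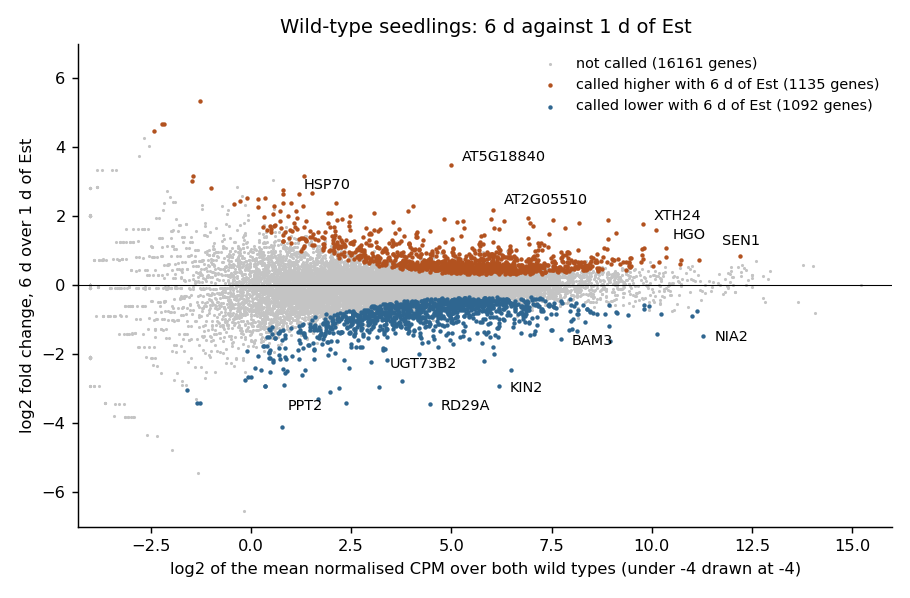
Log2 fold change of 6 d over 1 d seedlings (vertical axis) against log2 of mean CPM over the 6 wild-type libraries (horizontal axis), 1 point per tested gene, with means under -4 drawn at -4. The 1135 higher genes lie above 0 and the 1092 lower genes below it, and the cold genes RD29A and KIN2 stand among the lowest at their CPM.

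**Figure D2:**
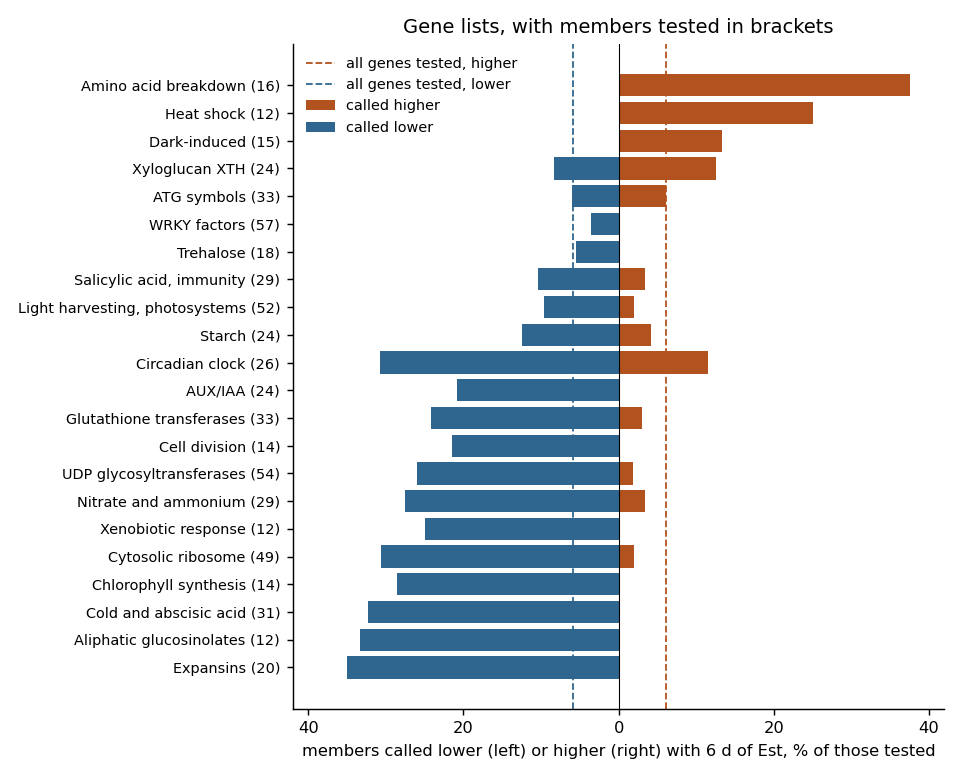
Members of gene lists and families called higher or lower in 6 d seedlings, as a percentage of the members tested, with dashed lines at the shares among all tested genes. Expansins reach 35%, cold and abscisic acid genes 32.3% and cytosolic ribosomal proteins 30.6% on the lower side, and amino acid breakdown reaches 37.5% on the higher side.

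Genes induced by cold and drought stood among the lowest fold changes in 6 d seedlings, where RD29A, COR15A, COR15B, KIN1 and KIN2 made up 5 of the 10 lowest that were named. That ranking took only genes whose groups did not overlap, so the separation of these 5 was a condition of being named. In the list of cold, drought and abscisic acid genes 10 of 31 tested genes were lower (32.3%), with a list median of -0.38, and the other 21 were not called. RD29A (AT5G52310), a classical marker of cold and desiccation, stood at 4.12, 3.79 and 2.597 CPM in 6 d seedlings, against 26.4, 34 and 60.8 CPM in 1 d seedlings (log2 fold change -3.45 ± 0.36, adjusted p = 4.24e-05). KIN2 (AT5G15970), a small hydrophilic protein induced by cold, stood at 18.3, 21.4 and 9.23 CPM in 6 d seedlings, against 94.7, 124 and 169.5 CPM in 1 d seedlings (log2 fold change -2.93 ± 0.28, adjusted p = 1.86e-05). Both genes were lowest in the third 6 d library and highest in the third 1 d library, and neither had overlapping groups. KIN1 (AT5G15960), its close relative, stood at 2.19, 2.80 and 0.866 CPM in 6 d seedlings, against 16.3, 10.9 and 21.8 CPM in 1 d seedlings (log2 fold change -2.95 ± 0.39, adjusted p = 0.000253). COR15A (AT2G42540), which protects chloroplast membranes during freezing, stood at 0.515, 1.48 and 0.289 CPM in 6 d seedlings, against 4.92, 6.18 and 10.4 CPM in 1 d seedlings (log2 fold change -3.104 ± 0.47, adjusted p = 0.000683). COR15B (AT2G42530) had 0.643, 1.81 and 0.577 CPM in 6 d seedlings, against 9.14, 4.75 and 10.4 CPM in 1 d seedlings (log2 fold change -2.96 ± 0.40, adjusted p = 0.000289). These 3 genes were also lower in every 6 d library, where each stood at a few CPM or less, so that their folds rest on few counts. In COR15B, 29.6% of the exon length lies antisense to another gene. RD22 (AT5G25610), a BURP-domain protein of the drought response, stood at 30.8, 27.2 and 17.3 CPM in 6 d seedlings, against 64.9, 77.98 and 106 CPM in 1 d seedlings (log2 fold change -1.69 ± 0.20, adjusted p = 0.000128), and its groups did not overlap either.

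The dehydrin ERD10 (log2 fold change -1.25 ± 0.24, adjusted p = 0.00353) and the membrane protein COR413-PM1 (log2 fold change -1.31 ± 0.27, adjusted p = 0.00485) were lower as well. So were the proline-synthesis enzyme P5CS1 (log2 fold change -1.16 ± 0.24, adjusted p = 0.00568) and the abscisic acid response factor ABF1 (log2 fold change -0.85 ± 0.20, adjusted p = 0.0128). ABF1 lost its call without 6 d library 2 (0.0627). Several other abscisic acid markers did not pass the test. RAB18, a dehydrin, was at 0.44 on the log2 scale (adjusted p = 0.167), and RD29B, a relative of RD29A, at -0.40 (adjusted p = 0.641). NCED3, which makes the precursor of abscisic acid under drought, was at -0.40 (adjusted p = 0.438). CBF2, a cold-induced activator that binds the C-repeat, stood at 2.19, 1.48 and 1.44 CPM in 6 d seedlings, against 2.67, 5.94 and 8.60 CPM in 1 d seedlings (log2 fold change -1.64 ± 0.46, adjusted p = 0.0295). It was lower in every 6 d library, but its call was lost without 6 d library 1 (0.0584), 6 d library 2 (0.108), 6 d library 3 (0.081), 1 d library 2 (0.077) or 1 d library 3 (0.159), and in limma-voom (0.0905). In the list of touch and rapid stress genes, CBF2 was the 1 member of 28 tested that was lower, and 20 of the 28 had a positive fold change. RD29A averaged 16.6 CPM in the SnRK line with 6 d of Est and 39.97 CPM in the S1 line with 1 d (3 libraries each). KIN2 averaged 31.6 CPM in that SnRK line and 85.2 CPM in that S1 line.

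**Figure D3:**
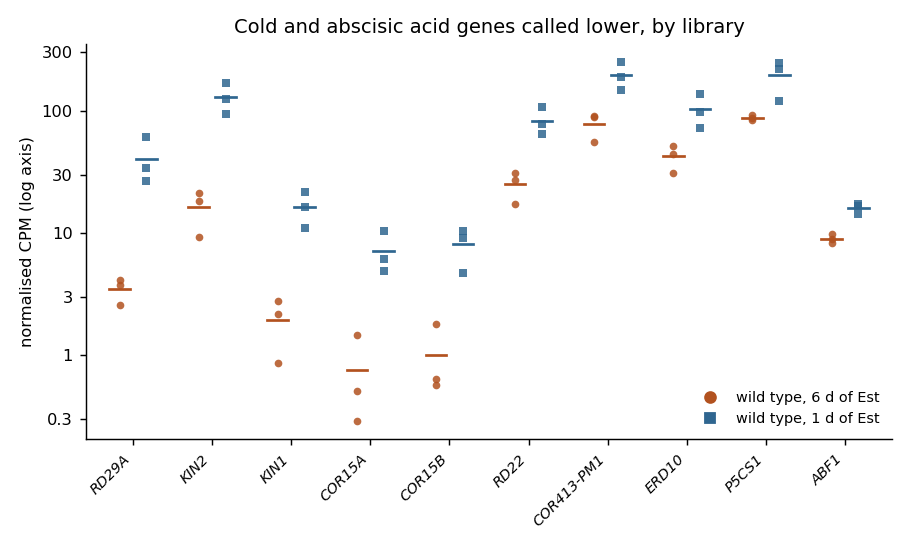
CPM (log axis) of cold and abscisic acid genes in each library, circles for 6 d and squares for 1 d seedlings, with bars at the group means. RD29A lies at 2.597 to 4.12 CPM in 6 d seedlings, below all 3 of the 1 d libraries.

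In 6 d seedlings both nitrate reductases and further genes that turn nitrate into amino acids were lower, and 1 transporter that moves nitrate towards the shoot was higher. In the list of nitrate and ammonium use 8 of 29 tested genes were lower (27.6%) and 1 was higher, with a list median of -0.31. The summed level of the list was 3296 to 4392 CPM in 6 d seedlings and 6626 to 8141 CPM in 1 d seedlings, so the ranges did not overlap. A large part of that sum was NIA2, which averaged 1328 CPM in 6 d and 3674 CPM in 1 d seedlings. NIA2 (AT1G37130), the main nitrate reductase, stood at 1530, 1357 and 1099 CPM in 6 d seedlings, against 3024, 3988 and 4009 CPM in 1 d seedlings (log2 fold change -1.47 ± 0.22, adjusted p = 0.000683). Its groups lay far apart, with the third 6 d library lowest. NIA1 (AT1G77760), the other nitrate reductase, stood at 111, 104.5 and 96.1 CPM in 6 d seedlings, against 161, 232 and 378 CPM in 1 d seedlings (log2 fold change -1.30 ± 0.23, adjusted p = 0.00224), and it varied most among the 1 d libraries. ASN2, an asparagine synthetase, stood at 51.9, 42.1 and 46.8 CPM in 6 d seedlings, against 74.1, 92.01 and 134 CPM in 1 d seedlings (log2 fold change -1.09 ± 0.20, adjusted p = 0.00228). Its groups did not overlap. GLU1, the ferredoxin-dependent glutamate synthase of leaves, was also lower (log2 fold change -0.86 ± 0.18, adjusted p = 0.0065).

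The other lower members were less stable. NIR1, nitrite reductase (log2 fold change -0.68 ± 0.18, adjusted p = 0.0225), lost its call without 6 d library 2 (0.0617), 6 d library 3 (0.0952), 1 d library 2 (0.0698) or 1 d library 3 (0.11). GLN2, the plastid glutamine synthetase (log2 fold change -0.68 ± 0.19, adjusted p = 0.0247), lost it without 6 d library 2 (0.073), 6 d library 3 (0.116), 1 d library 2 (0.052) or 1 d library 3 (0.0931). The ammonium transporter AMT1;2 (log2 fold change -0.93 ± 0.24, adjusted p = 0.0175) lost it without 6 d library 3 (0.077), 1 d library 1 (0.0504) or 1 d library 2 (0.0893). LBD37, a repressor of nitrogen-responsive genes (log2 fold change -0.66 ± 0.15, adjusted p = 0.00988), lost it without 1 d library 2 (0.0527) or 1 d library 3 (0.0505). The number of lower members was 8, 6 and 5 without 6 d library 1, 2 or 3, and 7, 4 and 5 without 1 d library 1, 2 or 3. NRT1.5 (AT1G32450), which loads nitrate into the xylem, stood at 78.5, 81.5 and 72.4 CPM in 6 d seedlings, against 30.9, 29.96 and 40.6 CPM in 1 d seedlings (log2 fold change 1.199 ± 0.14, adjusted p = 0.000108). All 6 d libraries of NRT1.5 lay above all 1 d libraries, with little spread in either group. NRT1.1, the dual-affinity nitrate transporter and sensor, was not called (0.06 on the log2 scale, adjusted p = 0.817).

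Several enzymes that break down tyrosine, branched-chain amino acids and lysine were higher in 6 d seedlings. In the amino acid breakdown list 6 of 16 tested genes were higher (37.5%), and all 16 fold changes were above 0, with a median of 0.40, against -0.0059 for all tested genes. The summed level was 12899.8 to 14095.9 CPM in 6 d seedlings and 8011 to 9465 CPM in 1 d seedlings. HGO (AT5G54080), homogentisate dioxygenase of tyrosine breakdown, stood at 1928, 1807 and 1575 CPM in 6 d seedlings, against 883, 891 and 738 CPM in 1 d seedlings (log2 fold change 1.08 ± 0.18, adjusted p = 0.00161). HPD (AT1G06570), which forms homogentisate, stood at 1668, 1794 and 1555 CPM in 6 d seedlings, against 997, 1077 and 789.7 CPM in 1 d seedlings (log2 fold change 0.81 ± 0.20, adjusted p = 0.0134). ETFQO, which passes electrons from amino acid breakdown to the respiratory chain, stood at 263, 242 and 211 CPM in 6 d seedlings, against 153, 121 and 126 CPM in 1 d seedlings (log2 fold change 0.84 ± 0.19, adjusted p = 0.00885). In these 3 genes each 6 d library exceeded each 1 d library. The branched-chain transaminase BCAT2 (log2 fold change 1.09 ± 0.26, adjusted p = 0.0127) and the lysine-degrading enzyme LKR (log2 fold change 1.04 ± 0.29, adjusted p = 0.0262) were higher too. The last was MCCB, a subunit of the carboxylase of leucine breakdown (log2 fold change 0.75 ± 0.23, adjusted p = 0.0472).

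HGO and ETFQO kept their calls without any 1 library, although 27.4% of the HGO exons lie antisense to another gene. HPD lost its call without 6 d library 2 (0.0584) or 1 d library 3 (0.0708), and BCAT2 without 6 d library 3 (0.0541) or 1 d library 3 (0.0655). LKR lost it without 6 d library 1 (0.0654), 6 d library 3 (0.0848), 1 d library 2 (0.0828) or 1 d library 3 (0.114). MCCB lost it without 6 d library 1 (0.115), 6 d library 2 (0.118), 6 d library 3 (0.0881), 1 d library 1 (0.0668), 1 d library 2 (0.119) or 1 d library 3 (0.157), with library totals alone (0.0572) and in limma-voom (0.0721). The number of higher members was 4, 4 and 3 without 6 d library 1, 2 or 3, and 5, 4 and 2 without 1 d library 1, 2 or 3.

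**Figure D4:**
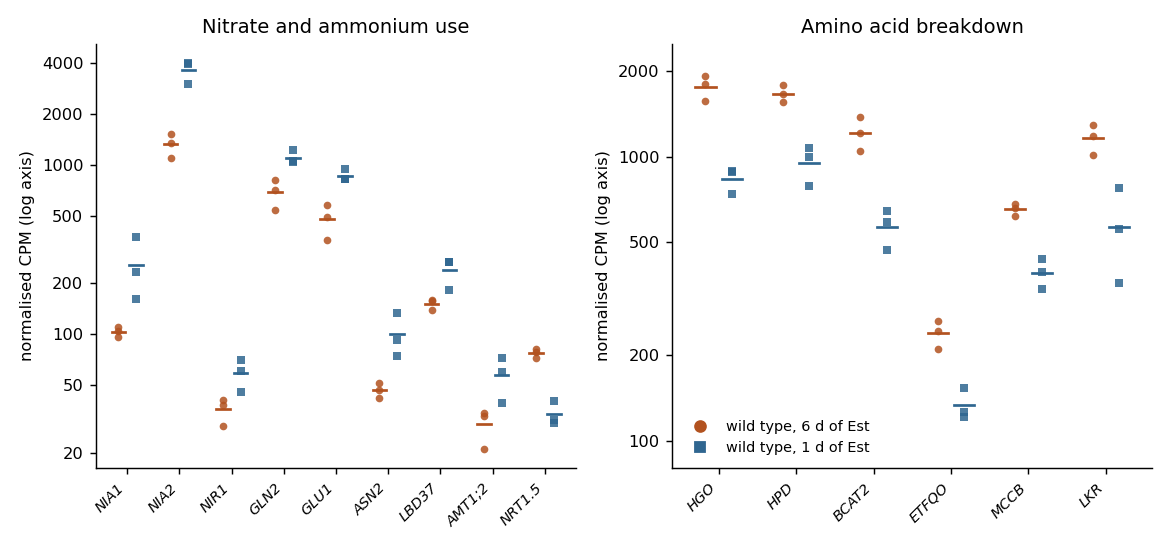
CPM (log axes) of the called genes of nitrate and ammonium use (left) and amino acid breakdown (right) in each library, circles for 6 d and squares for 1 d seedlings, with bars at the group means. The nitrate reductases NIA1 and NIA2 lie lower in 6 d seedlings, and NRT1.5 and the 6 breakdown enzymes lie higher.

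Of the classical dark-induced genes 2 passed the test, and the genes targeted in the lines did not pass it in the wild types. In the list of dark-induced genes 2 of 15 tested genes were higher (13.3%), against 6.17% of all tested genes, with a median of 0.26. SEN1 (AT4G35770), a gene that rises in darkness and ageing leaves, stood at 6643, 6035 and 5428 CPM in 6 d seedlings, against 3788, 3375 and 2900 CPM in 1 d seedlings (log2 fold change 0.85 ± 0.24, adjusted p = 0.0314). Its groups did not overlap, but its call was lost without 6 d library 1 (0.0979), 6 d library 2 (0.0848), 6 d library 3 (0.0543), 1 d library 2 (0.0907) or 1 d library 3 (0.122). ASN1 (AT3G47340), the dark-induced asparagine synthetase, stood at 10327.7, 8726 and 7858 CPM in 6 d seedlings, against 7535, 6605 and 6106 CPM in 1 d seedlings and was not called (log2 fold change 0.41 ± 0.29, adjusted p = 0.387). Its 6 d values were all above its 1 d values. BGLU30 (AT3G60140), a beta-glucosidase of dark-treated leaves, was higher by 1.68 on the log2 scale (adjusted p = 0.0308), although its groups overlapped. Its call was lost without 6 d library 2 (0.0621), 6 d library 3 (0.14), 1 d library 2 (0.117) or 1 d library 3 (0.116), and in DESeq2 (0.0505). The count of the list was 1, 0 and 0 without 6 d library 1, 2 or 3, and 2, 0 and 0 without 1 d library 1, 2 or 3.

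KIN10, the first SnRK1 catalytic subunit, averaged 88.1 ± 10.7 CPM in 6 d seedlings and 79.1 ± 5.89 CPM in 1 d seedlings (SD, n = 3 each), with a log2 fold change of 0.16 (adjusted p = 0.413). The SnRK line, labelled as a KIN10 knockout, still had 61.6, 65.6 and 60.2 CPM of KIN10, and the S1 line averaged 65.9 CPM. Counts per gene do not show which part of it the reads came from, so whether its full transcript was present was not tested. KIN11, the second, stood at 98.4, 114 and 85.4 CPM in 6 d seedlings, against 76.8, 84.2 and 65.4 CPM in 1 d seedlings (log2 fold change 0.40 ± 0.16, adjusted p = 0.0998), so that it was not called although its groups did not overlap. Of the S1 group, the log2 fold change was -0.10 for bZIP1, 0.12 for bZIP2, 0.09 for bZIP53, -0.09 for bZIP11 and 0.60 for bZIP44. Their adjusted p ran from 0.408 to 0.926. Counts of each S1 bZIP equalled those of a separately listed locus in every library, so reads of the paired loci were not separated in the deposited counts. bZIP9, a group C bZIP that pairs with S1 members, was the 1 gene of the 12 tested in that list that was higher. It stood at 108, 94.5 and 97.0 CPM in 6 d seedlings, against 62.0, 54.7 and 44.97 CPM in 1 d seedlings (log2 fold change 0.88 ± 0.15, adjusted p = 0.00161), without overlap.

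Clock genes of the morning and of the evening passed the test, some higher and more of them lower in 6 d seedlings. In the clock list 8 of 26 tested genes were lower (30.8%) and 3 were higher (11.5%). PRR5 (AT5G24470), a repressor of the afternoon and evening, stood at 25.1, 23.7 and 34.6 CPM in 6 d seedlings, against 67.2, 74.7 and 72.8 CPM in 1 d seedlings (log2 fold change -1.39 ± 0.15, adjusted p = 6.06e-05). CCA1 (AT2G46830), a repressor that peaks at dawn, stood at 208, 210.2 and 194 CPM in 6 d seedlings, against 323, 387 and 369 CPM in 1 d seedlings (log2 fold change -0.82 ± 0.13, adjusted p = 0.000809). All 6 d values of both genes lay below all 1 d values. RVE1, a relative of CCA1 that acts on auxin genes, stood at 143, 172 and 146 CPM in 6 d seedlings, against 302, 399 and 397 CPM in 1 d seedlings (log2 fold change -1.25 ± 0.18, adjusted p = 0.000565). RVE2 (log2 fold change -0.92 ± 0.17, adjusted p = 0.00245) and CDF2, a repressor of flowering genes (log2 fold change -0.71 ± 0.11, adjusted p = 0.00116), were lower as well. ELF3, of the evening complex, was also lower (log2 fold change -0.64 ± 0.12, adjusted p = 0.00357).

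FKF1, a blue-light receptor that degrades CDF proteins, was lower (log2 fold change -1.43 ± 0.38, adjusted p = 0.0213) but lost its call without 6 d library 1 (0.0802), 6 d library 2 (0.0985), 1 d library 1 (0.0636) or 1 d library 3 (0.0566). CDF1 was lower (log2 fold change -0.64 ± 0.19, adjusted p = 0.0346) and lost its call without 6 d library 1 (0.108), 6 d library 2 (0.141), 1 d library 1 (0.0599), 1 d library 2 (0.056) or 1 d library 3 (0.124), and in DESeq2 (0.0589). Higher members were GRP8, GI and PRR7. GRP8 (AT4G39260), an RNA-binding protein under clock control, stood at 96.9, 115 and 132 CPM in 6 d seedlings, against 66.4, 65.1 and 45.4 CPM in 1 d seedlings (log2 fold change 0.95 ± 0.16, adjusted p = 0.00143). GI (AT1G22770), which peaks late in the day and acts in flowering, stood at 16.7, 15.6 and 8.66 CPM in 6 d seedlings, against 6.19, 7.61 and 6.60 CPM in 1 d seedlings (log2 fold change 1.08 ± 0.22, adjusted p = 0.00481). PRR7 (AT5G02810), a repressor of CCA1, stood at 193, 178 and 202 CPM in 6 d seedlings, against 128, 119.8 and 126 CPM in 1 d seedlings (log2 fold change 0.61 ± 0.14, adjusted p = 0.00968). None of the 3 had overlapping groups. LHY, the partner of CCA1, was not called (log2 fold change -0.26 ± 0.13, adjusted p = 0.216), nor was TOC1, an evening repressor (log2 fold change -0.33 ± 0.12, adjusted p = 0.0769).

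**Figure D5:**
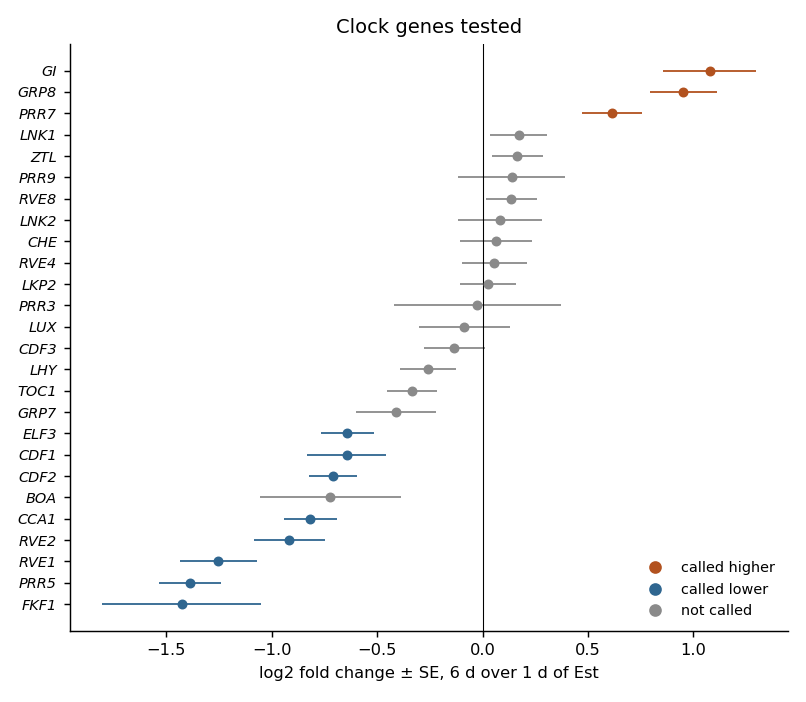
Log2 fold change of 6 d over 1 d seedlings with its standard error for the 26 clock genes tested, 1 point per gene. Colours mark genes called higher, called lower and not called. PRR5 and CCA1 lie below 0, and GRP8, GI and PRR7 lie above it.

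Cell wall genes passed the test in both directions. Of the expansins, which loosen walls during growth, 7 of 20 tested genes were lower (35%), with a median of -0.63 and a summed level of 177.2 to 266.1 CPM in 6 d seedlings and 332.7 to 362.6 CPM in 1 d seedlings. EXPA6 stood at 10.2, 10.5 and 7.21 CPM in 6 d seedlings, against 23.5, 24.2 and 24.8 CPM in 1 d seedlings (log2 fold change -1.34 ± 0.21, adjusted p = 0.000843). EXPA8 stood at 6.18, 5.76 and 7.79 CPM in 6 d seedlings, against 14.8, 15.2 and 12.4 CPM in 1 d seedlings (log2 fold change -1.13 ± 0.25, adjusted p = 0.00751). Both genes were lower in each 6 d library than in each 1 d library. The count was 6, 4 and 3 without 6 d library 1, 2 or 3, and 6, 4 and 3 without 1 d library 1, 2 or 3. Xyloglucan endotransglucosylases, which cut and rejoin wall xyloglucan, had 3 of 24 tested higher (12.5%) and 2 lower (8.33%). The count of lower members was 0, 0 and 1 without 6 d library 1, 2 or 3, and 2, 2 and 0 without 1 d library 1, 2 or 3. XTH24 (AT4G30270) stood at 1084, 1276 and 1690 CPM in 6 d seedlings, against 507, 407 and 267 CPM in 1 d seedlings (log2 fold change 1.78 ± 0.24, adjusted p = 0.000279). XTH15 stood at 174, 183 and 217 CPM in 6 d seedlings, against 54.7, 60.1 and 31.98 CPM in 1 d seedlings (log2 fold change 1.97 ± 0.29, adjusted p = 0.000598), and 31.65% of its exons overlap another gene. In both XTH genes the lowest 6 d library was above the highest 1 d library.

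Hormone-related growth genes were likewise mixed. EXO, induced by brassinosteroid, stood at 80.8, 83.3 and 117 CPM in 6 d seedlings, against 38.7, 35.2 and 42.8 CPM in 1 d seedlings (log2 fold change 1.25 ± 0.23, adjusted p = 0.00271), and DET2, a reductase of brassinosteroid synthesis, was higher (log2 fold change 0.78 ± 0.15, adjusted p = 0.00387). BAS1, which inactivates brassinosteroids, was lower (log2 fold change -0.80 ± 0.17, adjusted p = 0.00706), as was the bHLH factor BEE2 (log2 fold change -1.33 ± 0.18, adjusted p = 0.000318). In the brassinosteroid list 3 of 18 tested genes were higher and 3 lower (16.7% each), against 6.17% and 5.94% of all tested genes. GASA1, a small cysteine-rich peptide of the gibberellin-regulated family, stood at 586, 636 and 1058 CPM in 6 d seedlings, against 270.1, 166 and 179.9 CPM in 1 d seedlings (log2 fold change 1.89 ± 0.29, adjusted p = 0.000925), while GASA6 was lower (log2 fold change -1.39 ± 0.21, adjusted p = 0.000846). Among the Aux/IAA repressors of auxin signalling 5 of 24 tested genes were lower (20.8%), of which IAA19 (log2 fold change -1.68 ± 0.30, adjusted p = 0.00236) kept its call without each library. That count was 1, 1 and 2 without 6 d library 1, 2 or 3, and 4, 2 and 2 without 1 d library 1, 2 or 3. SAUR36, an auxin-responsive gene tied to leaf ageing, averaged 12.8 ± 4.26 CPM in 6 d seedlings and 4.04 ± 0.58 CPM in 1 d seedlings (SD, n = 3 each) without overlap (log2 fold change 1.60 ± 0.26, adjusted p = 0.00136). It was the 1 SAUR gene of 39 tested that was higher (2.56%), and 5 were lower (12.8%). The count of lower SAUR genes was 1, 2 and 3 without 6 d library 1, 2 or 3, and 6, 4 and 1 without 1 d library 1, 2 or 3.

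Some genes of ribosomal proteins and of DNA replication were lower. In the list of cytosolic ribosomal protein genes 15 of 49 tested genes were lower (30.6%) and 1 was higher, and 38 of the 49 fold changes were below 0, with a median of -0.23. RPL24A, of the large ribosomal subunit, stood at 20.8, 21.9 and 19.6 CPM in 6 d seedlings, against 39.5, 42.6 and 52.6 CPM in 1 d seedlings (log2 fold change -1.100 ± 0.13, adjusted p = 0.000151). RPL23AA (log2 fold change -0.84 ± 0.13, adjusted p = 0.000908) and RPL23AB (log2 fold change -0.70 ± 0.13, adjusted p = 0.00329) were lower with it. RPL18 was lower too (log2 fold change -0.70 ± 0.12, adjusted p = 0.00138). The count of lower members was 11, 7 and 7 without 6 d library 1, 2 or 3, and 12, 11 and 7 without 1 d library 1, 2 or 3. These symbols were matched by pattern, and the lower member RPL9 (AT3G44890) is a plastid ribosomal protein. Its call was lost without 6 d library 1 (0.11), 6 d library 2 (0.108), 6 d library 3 (0.117), 1 d library 2 (0.0675) or 1 d library 3 (0.225), and in limma-voom (0.0526). In the cell division list 3 of 14 tested genes were lower (21.4%), and RNR1, a subunit of ribonucleotide reductase, stood at 8.11, 8.39 and 8.66 CPM in 6 d seedlings, against 15.3, 13.6 and 14.6 CPM in 1 d seedlings (log2 fold change -0.80 ± 0.15, adjusted p = 0.00299). Its partner TSO2 (log2 fold change -0.91 ± 0.23, adjusted p = 0.0188) lost the call without 6 d library 2 (0.0658), 6 d library 3 (0.0568), 1 d library 2 (0.0618) or 1 d library 3 (0.0679). PCNA1, the replication clamp (log2 fold change -2.21 ± 0.58, adjusted p = 0.0202), lost it without 6 d library 2 (0.0724), 6 d library 3 (0.0559) or 1 d library 3 (0.104). The count of the list was 3, 1 and 1 without 6 d library 1, 2 or 3, and 4, 4 and 1 without 1 d library 1, 2 or 3. In whole seedlings, fewer cells of a type and less RNA per cell cannot be told apart.

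Some members of the chlorophyll synthesis pathway were lower, and so was a smaller share of the light-harvesting and photosystem genes. In the chlorophyll synthesis list 4 of 14 tested genes were lower (28.6%), 13 of the 14 fold changes were below 0, and the median was -0.46. CHLI1, a subunit of magnesium chelatase, stood at 109, 117 and 112 CPM in 6 d seedlings, against 205, 188 and 263 CPM in 1 d seedlings (log2 fold change -0.96 ± 0.16, adjusted p = 0.00138), without overlap. CHLH, another subunit, stood at 1670, 1403 and 1201 CPM in 6 d seedlings, against 2708, 2536 and 2740 CPM in 1 d seedlings (log2 fold change -0.90 ± 0.26, adjusted p = 0.0297). Its call was lost without 6 d library 2 (0.0983), 6 d library 3 (0.117), 1 d library 1 (0.0662), 1 d library 2 (0.0657) or 1 d library 3 (0.0813). The count of lower members was 2, 1 and 1 without 6 d library 1, 2 or 3, and 3, 2 and 1 without 1 d library 1, 2 or 3. Of the light-harvesting and photosystem genes 5 of 52 tested genes were lower (9.62%) and 1 was higher (1.92%), with a median of 0.05. Among all tested genes 5.94% were lower and 6.17% higher. The lower count was 3, 2 and 1 without 6 d library 1, 2 or 3, and 4, 2 and 1 without 1 d library 1, 2 or 3. Among the lower members a PsbP domain protein of the lumen (AT5G11450) kept its call without each library (log2 fold change -0.71 ± 0.12, adjusted p = 0.00165). The 5 Rubisco small subunit and activase genes had log2 fold changes from -0.72 to -0.27, the smallest adjusted p being 0.0598, for RBCS1B. RBCS1A stood at 12073.3, 11153.9 and 8821 CPM in 6 d seedlings, against 13372.3, 14016.6 and 17700.2 CPM in 1 d seedlings (log2 fold change -0.49 ± 0.29, adjusted p = 0.287).

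A few starch and sugar genes passed the test. BAM3 (AT4G17090), the main plastid beta-amylase of night-time starch breakdown, stood at 119.7, 121 and 79.6 CPM in 6 d seedlings, against 277, 374 and 303 CPM in 1 d seedlings (log2 fold change -1.56 ± 0.17, adjusted p = 7.76e-05), with 25.3% of its exons antisense to another gene. GBSS1, which makes amylose, stood at 84.5, 82.3 and 54.8 CPM in 6 d seedlings, against 137, 156 and 149.5 CPM in 1 d seedlings (log2 fold change -0.98 ± 0.16, adjusted p = 0.00108). Every 6 d library of these genes lay below every 1 d library. SWEET11 (AT3G48740), which exports sucrose from leaf cells, stood at 334, 305 and 304 CPM in 6 d seedlings, against 158, 185 and 136 CPM in 1 d seedlings (log2 fold change 0.98 ± 0.17, adjusted p = 0.00162). The sugar transporter STP14 stood at 407, 464 and 446 CPM in 6 d seedlings, against 263, 295 and 255.6 CPM in 1 d seedlings (log2 fold change 0.69 ± 0.15, adjusted p = 0.00759). Both transporters were higher without overlap. In the sugar transporter list 2 of 20 tested genes were higher (10%) and 1 was lower (5%), against 6.17% and 5.94% of all tested genes. The lower one was SWEET4. Its call was lost without 6 d library 1 (0.0922), 6 d library 3 (0.0759), 1 d library 1 (0.126) or 1 d library 2 (0.0657). In the trehalose list the trehalase TRE1 was the 1 of 18 tested genes that was lower (log2 fold change -0.82 ± 0.15, adjusted p = 0.00198). In the starch list 3 of 24 tested genes were lower (12.5%) and 1 was higher, 18 of the 24 fold changes were below 0, and the median was -0.22.

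Genes of glycosylation and detoxification passed the test mostly on the lower side. Among UDP-glycosyltransferases 14 of 54 tested genes were lower (25.9%) and 1 was higher. Among tau and phi glutathione transferases 8 of 33 tested genes were lower (24.2%) and 1 was higher. UGT73B2 (AT4G34135), a flavonol glucosyltransferase, stood at 18.4, 25.7 and 16.2 CPM in 6 d seedlings, against 87.4, 98.0 and 92.5 CPM in 1 d seedlings (log2 fold change -2.19 ± 0.15, adjusted p = 6.94e-07). UGT74F2, which glucosylates salicylic acid, stood at 221, 218 and 179 CPM in 6 d seedlings, against 386, 375 and 329 CPM in 1 d seedlings (log2 fold change -0.82 ± 0.15, adjusted p = 0.00248). Neither had overlapping groups, and the 1 d libraries of UGT73B2 were tightly grouped. The higher member was UGT89B1, another flavonol glucosyltransferase, at 16.6, 18.8 and 17.3 CPM in 6 d seedlings, against 8.72, 8.80 and 9.79 CPM in 1 d seedlings (log2 fold change 0.95 ± 0.16, adjusted p = 0.00133). The glycosyltransferase count was 7, 11 and 8 without 6 d library 1, 2 or 3, and 9, 8 and 10 without 1 d library 1, 2 or 3. That of lower glutathione transferases was 4, 5 and 4 without 6 d library 1, 2 or 3, and 6, 5 and 3 without 1 d library 1, 2 or 3. GSTU1 kept its call without each library (log2 fold change -1.13 ± 0.21, adjusted p = 0.00312).

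In the list of xenobiotic and mitochondrial stress genes 3 of 12 tested were lower in the full set and without each library. CYP81D11, a cytochrome P450 induced by xenobiotics, stood at 154, 194 and 135 CPM in 6 d seedlings, against 402, 459 and 349 CPM in 1 d seedlings (log2 fold change -1.32 ± 0.22, adjusted p = 0.00123). OPR1, a relative of oxophytodienoate reductase, stood at 43.4, 48.4 and 42.1 CPM in 6 d seedlings, against 103, 99.9 and 102 CPM in 1 d seedlings (log2 fold change -1.19 ± 0.21, adjusted p = 0.002). OPR2, its neighbour in that family, was lower too (log2 fold change -1.40 ± 0.23, adjusted p = 0.00122). All 3 genes were separate between the durations. The alternative oxidase AOX1A, a marker of mitochondrial stress, was not called (log2 fold change 0.34 ± 0.18, adjusted p = 0.226). Among all cytochrome P450 genes 6 of 135 tested were higher (4.44%) and 13 lower (9.63%), against 6.17% and 5.94% of all tested genes. The higher count was 4, 3 and 4 without 6 d library 1, 2 or 3, and 7, 5 and 5 without 1 d library 1, 2 or 3. The lower count was 8, 7 and 9 without 6 d library 1, 2 or 3, and 12, 10 and 10 without 1 d library 1, 2 or 3. CYP706A5 stood at 16.2, 15.8 and 15 CPM in 6 d seedlings, against 43.0, 53.7 and 44.97 CPM in 1 d seedlings (log2 fold change -1.58 ± 0.16, adjusted p = 2.65e-05). The stress-responsive transcription factors NAC032 (log2 fold change -1.13 ± 0.19, adjusted p = 0.00166) and NAC102 (log2 fold change -1.09 ± 0.15, adjusted p = 0.000344) were the 2 lower members of 60 NAC genes tested (3.33%).

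Some genes of aliphatic glucosinolate synthesis were lower, and immune genes differed singly. For aliphatic glucosinolates, the sulphur-rich defence compounds made from methionine, 4 of 12 tested genes were lower (33.3%), with a median of -0.93. The count was 4, 2 and 3 without 6 d library 1, 2 or 3, and 3, 4 and 2 without 1 d library 1, 2 or 3. MYB28, the activator of the pathway, stood at 1.54, 1.32 and 2.31 CPM in 6 d seedlings, against 4.92, 4.28 and 4.997 CPM in 1 d seedlings (log2 fold change -1.54 ± 0.30, adjusted p = 0.00356). CYP83A1, an enzyme of the pathway, stood at 18.5, 15.5 and 14.1 CPM in 6 d seedlings, against 30.4, 30.9 and 45.6 CPM in 1 d seedlings (log2 fold change -1.12 ± 0.24, adjusted p = 0.00666). Both were lower without overlap, at low counts for MYB28. Of 29 salicylic acid and immune genes, 3 were lower (10.3%) and 1 higher (3.45%), against 5.94% and 6.17% of all tested genes. The lower count was 2, 1 and 3 without 6 d library 1, 2 or 3, and 3, 4 and 1 without 1 d library 1, 2 or 3. CBP60G, an activator of salicylic acid synthesis, was the higher one (log2 fold change 0.67 ± 0.13, adjusted p = 0.00331), and the salicylic acid receptor NPR4 was lower (log2 fold change -0.71 ± 0.14, adjusted p = 0.0042). SARD1 was lower too, but lost its call without 6 d library 2 (0.06) or 1 d library 3 (0.0533). So was PAD4, which lost it without 6 d library 1 (0.119), 6 d library 2 (0.0622), 1 d library 2 (0.0605) or 1 d library 3 (0.106). PR1, the standard salicylic acid marker, was at 0 in all 6 d libraries and stood at 0.703, 0 and 4.597 CPM in 1 d seedlings, and was not called (adjusted p = 0.242).

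Heat shock, hypoxia, iron and wax genes each gave few calls in number, and their shares differed. Among all tested genes 6.17% were higher and 5.94% lower. HSP70, a heat-induced chaperone, stood at 9.13, 7.41 and 5.77 CPM in 6 d seedlings, against 1.83, 0.238 and 1.999 CPM in 1 d seedlings (log2 fold change 2.39 ± 0.69, adjusted p = 0.0319). Its call was lost without 6 d library 1 (0.105), 6 d library 2 (0.0701), 6 d library 3 (0.0513), 1 d library 1 (0.0709), 1 d library 2 (0.0994) or 1 d library 3 (0.0711), and in limma-voom (0.0922). In the heat shock list 3 of 12 tested genes were higher (25%), and 11 of the 12 fold changes were above 0. The higher count was 1, 0 and 1 without 6 d library 1, 2 or 3, and 2, 0 and 1 without 1 d library 1, 2 or 3. LBD41, a gene of the low-oxygen response, was higher (log2 fold change 1.49 ± 0.26, adjusted p = 0.00196), and was the 1 called member of 12 tested (8.33%). The ferritin FER3, an iron store, was lower (log2 fold change -1.98 ± 0.34, adjusted p = 0.00167). Of 21 iron and copper genes tested 1 was lower and 1 higher (4.76% each). CER1, which makes wax alkanes, was lower too (log2 fold change -1.80 ± 0.40, adjusted p = 0.00759). Of 9 wax genes tested 2 were lower (22.2%). SNZ, a repressor of flowering, stood at 2.44, 1.32 and 1.44 CPM in 6 d seedlings, against 6.75, 10.9 and 7.20 CPM in 1 d seedlings (log2 fold change -2.15 ± 0.35, adjusted p = 0.00117). Its 6 d libraries all lay below its 1 d libraries. The autophagy genes, matched by ATG symbols, had 2 of 33 tested higher and 2 lower (6.06% each). The lower ones carry the symbols ATG2 (AT3G51800) and ATG4 (AT3G51820) but are annotated as a metallopeptidase and a UbiA prenyltransferase. ATG4 lost its call without 6 d library 1 (0.0582), 6 d library 3 (0.0825) or 1 d library 3 (0.0824). Without both, 2 of 31 were higher, 26 of 31 were positive and the median was 0.28. The higher members were ATG8B, a ubiquitin-like protein of the autophagosome membrane (log2 fold change 1.07 ± 0.22, adjusted p = 0.00521), and ATG18G (log2 fold change 0.52 ± 0.12, adjusted p = 0.009).

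Outside the lists, the highest fold change named belonged to AT5G18840, annotated as a major facilitator superfamily protein. It stood at 45.8, 56.6 and 73.3 CPM in 6 d seedlings, against 7.03, 2.85 and 4.597 CPM in 1 d seedlings (log2 fold change 3.50 ± 0.31, adjusted p = 1.13e-05). Its mean was 55.3 CPM in the SnRK line with 6 d of Est and 7.11 CPM in the S1 line with 1 d (3 libraries each). AT2G05510, a glycine-rich protein, stood at 106, 124 and 95.5 CPM in 6 d seedlings, against 30.5, 23.8 and 15.8 CPM in 1 d seedlings (log2 fold change 2.20 ± 0.19, adjusted p = 1.13e-05). MLP329, of the major latex protein family, stood at 29.5, 29.8 and 23.4 CPM in 6 d seedlings, against 5.49, 4.99 and 6.196 CPM in 1 d seedlings (log2 fold change 2.31 ± 0.22, adjusted p = 1.86e-05). All 3 genes were higher in each 6 d library, which the rule that named them required. AT2G05510 averaged 25.7 CPM in that SnRK line and 34.1 CPM in that S1 line. MLP329 averaged 1.01 CPM in the SnRK line and 5.68 CPM in the S1 line.

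Among the lowest fold changes outside the lists, PPT2, a plastid phosphoenolpyruvate translocator, stood at 0.515, 1.48 and 0.577 CPM in 6 d seedlings, against 8.86, 9.04 and 10.4 CPM in 1 d seedlings (log2 fold change -3.41 ± 0.37, adjusted p = 6.23e-05). AT3G55580, an RCC1 family protein, stood at 3.47, 3.13 and 4.04 CPM in 6 d seedlings, against 21.2, 26.1 and 24.2 CPM in 1 d seedlings (log2 fold change -2.76 ± 0.18, adjusted p = 6.94e-07). In both genes every 6 d library lay below every 1 d library, again a condition for being named. ECS1 stood at 44, 32.8 and 2.31 CPM in 6 d seedlings, against 93.98, 148 and 218 CPM in 1 d seedlings (log2 fold change -2.45 ± 0.50, adjusted p = 0.00467), and 6 d library 3 lay far below the other 6 d libraries. SAG21, a late embryogenesis protein of oxidative stress and ageing, was among the most abundant lower genes by CPM, at 525, 602 and 710.1 CPM in 6 d seedlings, against 958, 1593 and 2372 CPM in 1 d seedlings (log2 fold change -1.42 ± 0.27, adjusted p = 0.00288). It was the 1 lower member of the senescence list, of 12 tested (8.33%), while 2 were higher (16.7%), with a median of 0.004. Among all tested genes 5.94% were lower and 6.17% higher. The higher count of that list was 2, 1 and 0 without 6 d library 1, 2 or 3, and 2, 1 and 0 without 1 d library 1, 2 or 3. GRF6, a phosphoprotein-binding regulator, was among the most abundant higher genes, at 2908, 3081 and 2672 CPM in 6 d seedlings, against 1766, 1769 and 1627 CPM in 1 d seedlings (log2 fold change 0.75 ± 0.18, adjusted p = 0.0117), and lost its call without 6 d library 2 (0.0541) or 1 d library 3 (0.0524).

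Lists not yet described gave few calls in number. Among all tested genes 6.17% were higher and 5.94% lower. Of 6 type-A response regulators, which damp cytokinin signalling, 2 were lower (33.3%). ARR8 (log2 fold change -0.94 ± 0.23, adjusted p = 0.014) lost its call without 6 d library 2 (0.0646), 6 d library 3 (0.053) or 1 d library 2 (0.0675). ARR9 (log2 fold change -1.19 ± 0.29, adjusted p = 0.0128) lost it without 6 d library 1 (0.0594) or 1 d library 3 (0.0639), and in DESeq2 (0.052). Of 18 phosphate-starvation genes 3 were higher (16.7%) and 1 lower (5.56%). The higher count was 1, 1 and 3 without 6 d library 1, 2 or 3, and 1, 2 and 3 without 1 d library 1, 2 or 3. Of 27 jasmonate genes 2 were higher (7.41%), a count that was 1, 0 and 2 without 6 d library 1, 2 or 3, and 1, 0 and 2 without 1 d library 1, 2 or 3. MYC2, the master regulator of jasmonate responses, was one of these (log2 fold change 0.64 ± 0.15, adjusted p = 0.0126) and lost its call without 6 d library 2 (0.0617) or 1 d library 2 (0.0563). Of 57 WRKY transcription factors 2 were lower (3.51%), and 1 without 6 d library 2 or 1 d library 1. The 1 higher NAC factor of 60 tested (1.67%) was ANAC018 (log2 fold change 0.81 ± 0.26, adjusted p = 0.0495). It lost its call without 6 d library 1 (0.0697), 6 d library 2 (0.1955), 6 d library 3 (0.0722), 1 d library 1 (0.111), 1 d library 2 (0.146) or 1 d library 3 (0.0665). The call was also lost with library totals alone (0.0824), relative log expression factors (0.05045) or no filter (0.0562), in DESeq2 (0.0737) and in limma-voom (0.0678). The 6 wild types alone (0.051) and a replicate block in 12 (0.0548) or 6 libraries (0.0743) lost it as well. The flavonoid list had 2 of 12 tested genes lower (16.7%), chalcone synthase CHS (log2 fold change -1.11 ± 0.32, adjusted p = 0.0309) and PAL1 (log2 fold change -0.88 ± 0.27, adjusted p = 0.0447), and neither kept its call without each library. CHS lost it without 6 d library 1 (0.0508), 6 d library 2 (0.0862), 6 d library 3 (0.0957), 1 d library 2 (0.0632) or 1 d library 3 (0.147), and in limma-voom (0.0817). PAL1 lost it without 6 d library 1 (0.0704), 6 d library 2 (0.121), 6 d library 3 (0.139), 1 d library 2 (0.105) or 1 d library 3 (0.165).

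Markers of other organs were checked, because the labels name whole seedlings. Light-harvesting and photosystem genes summed to 161960.8 to 203124.5 CPM in 6 d seedlings and 159499.1 to 198362.4 CPM in 1 d seedlings, the level of the green shoot markers. Of 17 root markers 4 were tested, and CASP2, which builds the Casparian strip of the root endodermis, stood at 5.404, 6.58 and 7.50 CPM in 6 d seedlings, against 0.985, 1.19 and 2.399 CPM in 1 d seedlings (log2 fold change 2.09 ± 0.44, adjusted p = 0.0056). It was higher in every 6 d library, as the rule that named it required, while CASP1, its partner, was not called (log2 fold change 0.44 ± 0.45, adjusted p = 0.574). The root regulators SCR (log2 fold change -0.13 ± 0.14, adjusted p = 0.617) and SHR (log2 fold change -0.24 ± 0.19, adjusted p = 0.452) were not called either. Other root markers were too low to be tested, and of these PRP3 had 5 counts in 6 d and 22 in 1 d seedlings, EXPA7 0 in 6 d and 7 in 1 d seedlings, and LRX1 3 in 6 d and 7 in 1 d seedlings (sums of 3 libraries). PRP3 and EXPA7 were lower in every 6 d library. Of 12 flower organ genes 1 was tested. PI, a petal and stamen identity gene, stood at 2.44, 1.98 and 8.08 CPM in 6 d seedlings, against 0.703, 0.713 and 0.799 CPM in 1 d seedlings (log2 fold change 2.30 ± 0.57, adjusted p = 0.0149). It was highest in the third 6 d library, and its call was lost without 6 d library 3 (0.0568) or 1 d library 1 (0.0564). The flower organ genes AP3 and SEP2 and 8 of 9 seed storage genes were at 0 in all 6 libraries. The part of organ composition in the results above was not tested.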

How the data were processed

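Messenger RNA libraries had been made from 5 µg of RNA of seedlings with an NEBNext kit, per the labels' protocols. The submitters' processing notes name SAMtools 0.1.18, Bowtie 0.12.8, FastQC and the genome build TAIR10. Not given in the sources used here are the role of each tool, the counter, the strand and how reads with several hits were treated. The authors deposited raw counts per gene for 28775 genes, 1 library per file, of which 28009 matched the TAIR10.1 annotation from RefSeq by locus. Exons of 7561 genes overlap another gene there, so without the strand their reads cannot be told apart. Among 19208 genes reaching 50 counts, 128 had the same counts as another gene in all libraries.

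Counts of all 12 libraries entered 1 quasi-likelihood fit in edgeR 4.0.16 (R 4.3.3) with group as the only term, after filterByExpr with a minimum count of 10 and TMM scaling. The common coefficient of variation was 13.2%. The contrast was wild type with 6 d minus wild type with 1 d of Est, with Benjamini-Hochberg adjustment over 18388 genes and a threshold of 0.05. Standard errors were derived from the F statistic. CPM were computed on the scaled library sizes. The fit was tested on simulated data.

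The comparison, its gene lists and families were chosen with earlier results of these data known, so no list was tested as a set, and lists are described by counts and medians. Genes whose locus and symbol disagreed in the annotation were dropped, 30 of 612. Genes named were the 10 highest and 10 lowest fold changes of called genes whose groups did not overlap and whose higher group averaged 5 CPM or more, the 5 most abundant called genes in each direction, up to 4 members of smallest p of lists with at least 3 called members, the genes targeted in the lines and the highest tissue markers, which gave 138. Other genes are named as list members. Promoter windows of 300 bases were searched on both strands, the C-repeat core being added after values were seen. Alternatives were other scalings, filters and fits, DESeq2 1.42.0, limma-voom (limma 3.58.1), a replicate block and each library left out. Figures were drawn with matplotlib 3.10.9 in Python 3.11.15.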

Additional observations from a re-analysis of the deposited data

How the results depend on the processing

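Of the 2227 genes called, 0 reversed direction in any alternative, and 74 of the 128 called genes among those named kept their call without each library. Library totals alone gave 724 higher and 1438 lower genes, and requiring at least 2-fold gave 241 and 343. Leaving out 1 library gave 622 to 854 higher and 589 to 899 lower genes, and 37.1% of the calls passed in every such fit. The higher count moved by over 1.5 times without 6 d library 1 (753), 2 (622) or 3 (646) and 1 d library 2 (671) or 3 (623), and the lower count without 6 d library 2 (589) or 3 (617) and 1 d library 2 (702) or 3 (639). These fits have fewer libraries. Relative log expression factors gave 1118 and 1073, no filter 1104 and 1100, at least 5 CPM in 3 libraries 1115 and 1130, DESeq2 1110 and 1042, limma-voom 1103 and 1002, and the 6 wild-type libraries alone 1426 and 1521. Without organelle genes there were 1143 and 1096, and without overlapping or identically counted genes, an alternative chosen after seeing the data, 1035 and 1002.

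With the replicate number as a block, 1319 genes were higher and 1246 lower in the 12-library fit, and 1546 and 1530 in the 6 wild types. Deviations of same-numbered libraries correlated at 0.108, 0.015 and -0.041, so the numbers were not taken as pairing. The third 6 d library had the fewest counts, 3760168, and genes at a few CPM rest on few counts.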

Other observations

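Groups formed from the annotated gene products, chosen after values were seen and given as values only, added 4 patterns to the lists. Of 139 tested genes annotated as disease resistance proteins, the intracellular immune receptors of plants, 22 were lower in 6 d seedlings (15.8%) and 1 was higher, with a median log2 fold change of -0.20. AT1G58602, one of them, stood at 99.6, 96.3 and 95.5 CPM in 6 d seedlings, against 185, 190.2 and 179 CPM in 1 d seedlings (log2 fold change -0.93 ± 0.12, adjusted p = 0.000221, standard error after ±, edgeR). AT1G61190 stood at 35.1, 36.7 and 25.1 CPM in 6 d seedlings, against 80.6, 93.7 and 102 CPM in 1 d seedlings (log2 fold change -1.49 ± 0.14, adjusted p = 1.54e-05). Both genes were lower in each 6 d library than in each 1 d library. In 34 of the 139 genes at least 20% of the 50-base stretches also occur in another gene, so that reads could have been split between copies. Of 33 ubiquitin-conjugating enzyme genes 7 were higher (21.2%), among them UBC17, with 18.4, 19.1 and 22.2 CPM in 6 d seedlings, against 6.89, 6.18 and 5.60 CPM in 1 d seedlings (log2 fold change 1.65 ± 0.21, adjusted p = 0.000216). UBC5 stood at 146, 152 and 136 CPM in 6 d seedlings, against 97.5, 86.8 and 82.3 CPM in 1 d seedlings (log2 fold change 0.70 ± 0.15, adjusted p = 0.00598). Neither gene had overlapping groups.

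Of 19 chaperonin genes, which help other proteins fold, 6 were lower (31.6%). CPN60B, a subunit of the plastid chaperonin, stood at 86.6, 78.5 and 71.3 CPM in 6 d seedlings, against 139, 144 and 212 CPM in 1 d seedlings (log2 fold change -1.06 ± 0.21, adjusted p = 0.00416), and its partner CPN60A at 96.9, 84.1 and 79.3 CPM in 6 d seedlings, against 127, 136 and 174 CPM in 1 d seedlings (log2 fold change -0.74 ± 0.14, adjusted p = 0.00248). Both were lower without overlap. Of all 316 genes annotated as ribosomal proteins, of the cytosol and the organelles, 58 were lower (18.4%) and 12 higher (3.8%), with a median of -0.20. With library totals alone the medians were -0.27 for disease resistance genes, -0.37 for chaperonins and -0.27 for ribosomal proteins, while that of ubiquitin-conjugating enzymes was -0.0022, against 0.07 with the scaling used here.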
